A study of Ciona robusta with 15 samples.

Results

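Among the 15284 gene models of the ascidian Ciona robusta in the deposited tables, 30 had almost no reads in control embryos and more reads in every library of every group electroporated with Bra. These 30 gene models were chosen by measured values. Their mean over the 3 control libraries was under 10 normalised reads, and the log2 difference between a treated library and the control library of the same replicate number was at least 1.5 in all 12 treated libraries. The higher reads relative to control are therefore how the genes were selected, and they are given below as a description with no test. The rule did not compare the groups given Bra with one another, and those differences were tested. It did set a floor on each of the 12 treated libraries, which also served for the tests. A gene under that floor in any 1 library was left out. The differences among groups within the members therefore depend in part on the rule.

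All embryos came from eggs electroporated after fertilisation, grown at 21 °C and collected whole at Hotta stage 19.5, with 300 embryos per sample. Control embryos carried Etr1>H2B-Venus, a fluorescent reporter without a transcription factor. The Bra group carried Etr1>Venus-Bra, the Bra+Foxa.a group added Etr1>Foxa.a-Myc to it, the Bra+Mnx group added Etr1>Mnx-HA, and the Bra+Foxa.a+Mnx group carried all 3 of these plasmids. Each of the 5 groups had 3 libraries. The Etr enhancer drives its plasmid in neural tissue, whereas the RNA was taken from the whole embryo, so in these bulk samples a change in the number of cells that express a gene and a change in RNA per cell cannot be told apart.

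Brachyury (Bra) is a T-box transcription factor that specifies the notochord, the rod of cells along the axis of the chordate embryo. Foxa.a is a forkhead factor present in the endoderm and notochord lineages and the floor plate, and Mnx is a homeodomain factor. Placing Bra in the nervous system, alone or with either cofactor, addresses which genes it can raise outside the notochord and how the cofactors alter that response. The tables give gene models by KH identifiers only and pair none of the 30 with a gene name, so no function is stated for any of them.

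The libraries held between 17689915 and 26460260 recovered reads, of which the 10 genes with most reads made up 9.16% to 10.04%. The gene model identified as Bra had 653 ± 124 normalised reads in control and 1070 ± 338 in Bra (SD, n = 3). It had 1208 ± 121 with Foxa.a added, 1202 ± 104 with Mnx added and 1541 ± 82.6 with both. The Foxa.a gene model had 5544 ± 281 in control and rose from 7219 ± 974 in Bra to 12021 ± 400.4 in Bra+Foxa.a. The Mnx gene model had 483 ± 78.9 in control and rose from 406 ± 41.1 in Bra to 1957 ± 860.0 in Bra+Mnx. The limma adjusted p-values of these rises from Bra were 0.0111 and 0.00485. Where its plasmid was not given, Foxa.a had 8562 ± 1216 in Bra+Mnx, and Mnx had 282 ± 59.7 in Bra+Foxa.a. Plasmid and endogenous transcripts were counted together, and the pairing of these 3 identifiers with names was not checked against an annotation. A list of 8 neural genes had a summed level of 15141 to 18434 normalised reads in control libraries, 10339 to 12731 in Bra, 6835 to 8963 with Foxa.a added, 7798 to 9175 with Mnx added and 6360 to 8528 with both, with none of the 8 at 0. Most reads in that list came from Celf3/4/5/6 (Etr), with 9522 ± 953 normalised reads in control and 5650 ± 597 in Bra (SD, n = 3). The sums therefore follow mainly this gene. Msx had 1561 ± 407 normalised reads in Bra and 1442 ± 417 in control (SD, n = 3), groups that overlapped. Pou4 had 236 to 352 in control and 171 to 271 in Bra. Islet had 318 to 415 in control and 208 to 368 in Bra, so the groups of these genes overlapped too. The other genes of the list were lower in Bra than in control without overlap. Neurog had 590 to 652 in control and 296 to 385 in Bra, and Otx had 2677 to 3350 and 1888 to 2441. Ebf had 634 to 828 in control and 442 to 497 in Bra, and Tyr had 887 to 1225 and 562 to 779. Tbx2/3, the 1 notochord gene beside Bra, had 2178 to 2676 normalised reads in control, 2725 to 3861 in Bra, 3350 to 3882 with Foxa.a added, 2945 to 3395 with Mnx added and 3640 to 3903 with both. Mrf, the 1 muscle gene, had 2299 to 2567 in control and 2087 to 2455 in Bra, and lay lower, between 1374 and 2001, in all 9 libraries with a cofactor. The 3 cardiac genes summed to 5561 to 6706 in control, 5180 to 6603 in Bra and 5131 to 6264 with Foxa.a added. Their sum was 4778 to 5124 with Mnx added, below every control and Bra library, and 5252 to 6005 with both. The part of these marker levels in the results below was not tested.

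The 30 genes were near the limit of detection in control embryos. Over the 3 control libraries together they had between 0 and 29 reads each, with a median of 10. Only KH.C1.817 had no control read at all, 9 members had no read in at least 1 control library, and 14 had fewer than 10 control reads in total. Together the 30 genes took 4.33 ± 0.318 RPM (reads scaled to the library's total) in control and 90.5 ± 16.7 in Bra (SD, n = 3). They took 138 ± 8.81 RPM with Foxa.a added, 99.9 ± 33.4 with Mnx added and 102 ± 22.4 with both. The lowest treated library, at 71.3 RPM, stood far above the highest control library at 4.52. The 3 Bra+Foxa.a libraries, at 129 to 146, lay above the 3 Bra libraries at 72.4 to 105, while the ranges of Bra+Mnx (71.3 to 137) and Bra+Foxa.a+Mnx (79.8 to 125) overlapped with that of Bra. These sums are dominated by the few members with most reads.

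Averaged over the 12 treated libraries, single members had 7.30 to 355 normalised reads, with a median of 48.4. Gene lengths were not used here, so these read numbers do not rank the members by expression. The median of a member's 12 log2 differences from control ran from 2.21 to 6.37 and had a median of 3.66 over the 30 genes. It reached 5 in 4 members: KH.C4.361 with 6.37, KH.C12.313 with 5.32, KH.C14.317 with 5.09 and KH.S1222.1 with 5.08. Because 1 was added to each value before taking logs, the change is understated where reads were few. The 4 groups are all set against the same 3 control libraries.

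**Figure D1:**
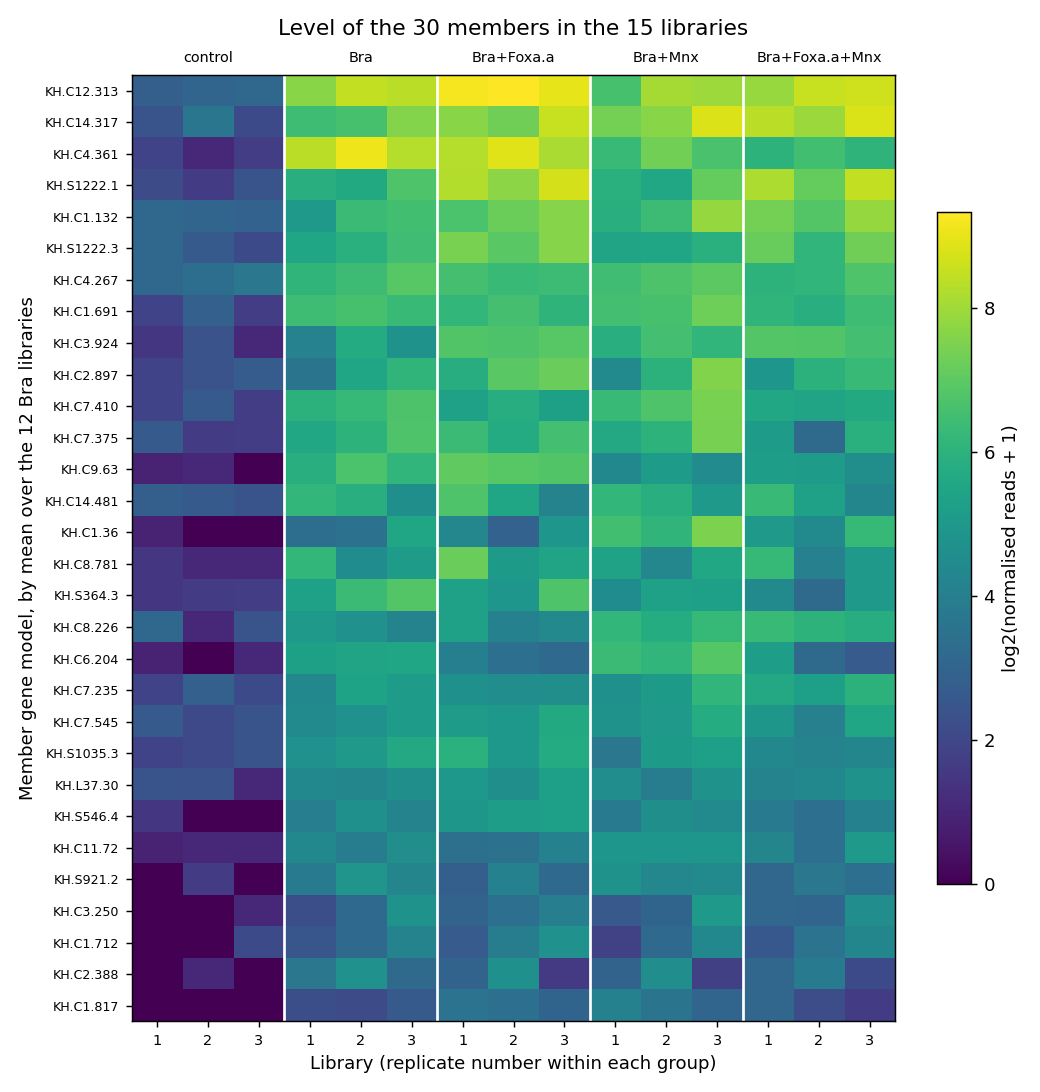
Heat map of the 30 members (rows, ordered by mean normalised reads over the 12 treated libraries) in the 15 libraries (columns, grouped by electroporation), coloured by log2(normalised reads + 1). The 3 control columns are dark in every row because the rule chose the genes so, and rows such as KH.C4.361, KH.C6.204 and KH.S1222.1 change between the groups given Bra.

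KH.C4.361 had the largest difference from control. Its normalised reads were 2.64, 1.05 and 2.21 in the control libraries (replicates 1 to 3) and 331, 542 and 317 in Bra. KH.C12.313 had 6.17, 7.35 and 7.73 in control against 203, 357 and 326 in Bra. KH.C14.317 had 4.41, 11.5 and 3.31 in control against 86.4, 96.6 and 193 in Bra. In all 3 genes the lowest Bra library was several times the highest control library. At the other end, KH.C1.817 had 0 reads in each control library and only 3.72, 3.49 and 5.27 normalised reads in Bra. Its mean over the 12 treated libraries was at least 7.28-fold higher than the level that 3 reads over the whole control group would give. Counts were low in several members: 6 had a treated mean under 20 normalised reads, and 11 had at least 1 treated library with fewer than 10 reads, the fewest being 2.

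How the rule's limits cut the list can be seen from the genes beside them. Of all gene models, 2908 had a control mean under 10, and among these the difference was reached in all 3 replicates by 74 in Bra, 121 with Foxa.a added, 80 with Mnx added and 84 with both. All 4 groups were met by the 30 members, exactly 3 groups by 31 genes, 2 groups by 41 and 1 group by 64. Of the 31 genes that missed 1 group, 13 missed Bra+Foxa.a+Mnx, 12 missed Bra, 3 missed Bra+Foxa.a and 3 missed Bra+Mnx. The members nearest the limit were KH.L37.30, whose smallest difference was 1.53 in Bra+Mnx replicate 2, and KH.C6.204, at 1.59 in Bra+Foxa.a+Mnx replicate 3. Just outside were KH.C1.475, whose smallest difference was 1.47 in Bra+Mnx replicate 3, and KH.C12.644, at 1.47 in Bra+Foxa.a replicate 2. The member with most control reads was KH.C4.267, with a control mean of 9.58, and KH.L45.3, with a control mean of 10.5 and a smallest difference of 1.64, was just above that limit.

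The groups given Bra were then compared with one another. The question was whether adding Foxa.a, Mnx or both altered the level that these genes reached with Bra alone. The range of a member's 4 group means on the log2 scale had a median of 1.34. It was at least 1 in 21 of the 30 members (70%), against 9.10% of the tested genes in the same range of treated means, and at least 2 in 5. Such a range includes replicate error and carries no test. The highest of the 4 means was in Bra+Foxa.a for 13 members, in Bra+Mnx for 11, in Bra for 3 and in Bra+Foxa.a+Mnx for 3. The lowest was in Bra for 10, in Bra+Foxa.a+Mnx for 10, in Bra+Foxa.a for 6 and in Bra+Mnx for 4. The spread between replicates was also wide. The within-group SD on the log2 scale had a median of 0.47 over the members, against 0.34 over the 6186 tested genes in the same range of treated means.

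Differences were tested with limma in a single fit of the 15 libraries over 14260 genes, which all 30 members entered, with Benjamini-Hochberg adjustment over all genes and a threshold of 0.05. Samples with the same replicate number deviated together, so the fit with the replicate number as a block is given beside each result whose call it changes. Without the block, 4 members passed in at least 1 of the 6 comparisons, for 7 calls in all. With the block, 15 members passed, for 38 calls that included all 7, and 15 members passed in none. Over all genes tested, 1.22% passed in at least 1 of the 6 comparisons without the block and 10.4% with it. Every one of the 38 differences had the same sign in 3 of 3 replicate numbers. Passing with the block favours such agreement, so it is not separate support for the calls. The 6 comparisons draw on the same 4 groups and are not independent of each other. Bra+Foxa.a minus Bra and Bra+Foxa.a+Mnx minus Bra+Mnx, which both measure the addition of Foxa.a, have no library in common, nor do the 2 comparisons that measure the addition of Mnx.

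Adding Foxa.a to Bra raised KH.S1222.1 most. Its normalised reads were 56.7, 50.0 and 106 in Bra and 302, 208 and 428 in Bra+Foxa.a, and they were 59.5, 46.3 and 138 in Bra+Mnx against 289.8, 138 and 357 with both cofactors. The Bra and Bra+Foxa.a libraries did not overlap, and within each replicate number the library with Foxa.a was the higher. The log2 difference between Bra+Foxa.a and Bra was 2.14 ± 0.19 (SE, limma adjusted p = 4.52e-06 with the block and 0.0827 without). In the other pair of groups, Bra+Foxa.a+Mnx minus Bra+Mnx, it was 1.73 ± 0.19 (limma adjusted p = 6.29e-05 with the block and 0.534 without). With the block, both differences passed whichever replicate number was left out.

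KH.C3.924 rose with either cofactor. It had 16.7, 52.4 and 26.3 normalised reads in Bra, 111, 104 and 119.9 with Foxa.a added, 57.8, 91.5 and 70.6 with Mnx added, and 112, 110.2 and 92.4 with both. All 9 libraries with a cofactor were above all 3 of Bra alone. Bra+Foxa.a+Mnx exceeded Bra by 1.84 ± 0.39 without the block (limma adjusted p = 0.0452) and passed with it at 4.24e-04. Bra+Foxa.a exceeded Bra by 1.93 ± 0.28 with the block (limma adjusted p = 4.75e-04, and 0.0597 without), and Bra+Mnx by 1.30 ± 0.28 (0.0278, and 0.999 without). Without the block, the difference between Bra+Foxa.a+Mnx and Bra passed in 1 of 6 fits that each left out 1 library, the exception to losing it being the fit without Bra replicate 2, and the highest adjusted p was 0.182. With the block, the difference between Bra+Mnx and Bra was lost without any 1 of the 3 replicate numbers, with an adjusted p of up to 0.156.

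KH.C6.204 went the other way. It had 39.0, 43.1 and 44.3 normalised reads in Bra and 15.4, 9.58 and 8.06 in Bra+Foxa.a, and 80.7, 69.4 and 116 in Bra+Mnx against 36.8, 8.5 and 5.37 in Bra+Foxa.a+Mnx. Every library with Foxa.a was below every library without it. It had the widest range of group means among the members, at 2.91 on the log2 scale, which is the difference of 2.91 ± 0.54 between Bra+Mnx and Bra+Foxa.a (limma adjusted p = 0.0302 without the block and 4.91e-04 with it). That call without the block was lost whichever of its 6 libraries was left out, with an adjusted p of up to 0.162, and was kept in all 3 block fits that left out a replicate number. With the block, its log2 difference was -1.89 ± 0.44 between Bra+Foxa.a and Bra (limma adjusted p = 0.0166, and 0.281 without), and -2.73 ± 0.44 between Bra+Foxa.a+Mnx and Bra+Mnx (0.00203, and 0.115 without). Both of the last calls were lost without replicate 2, at adjusted p-values of 0.166 and 0.0673.

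**Figure D2:**
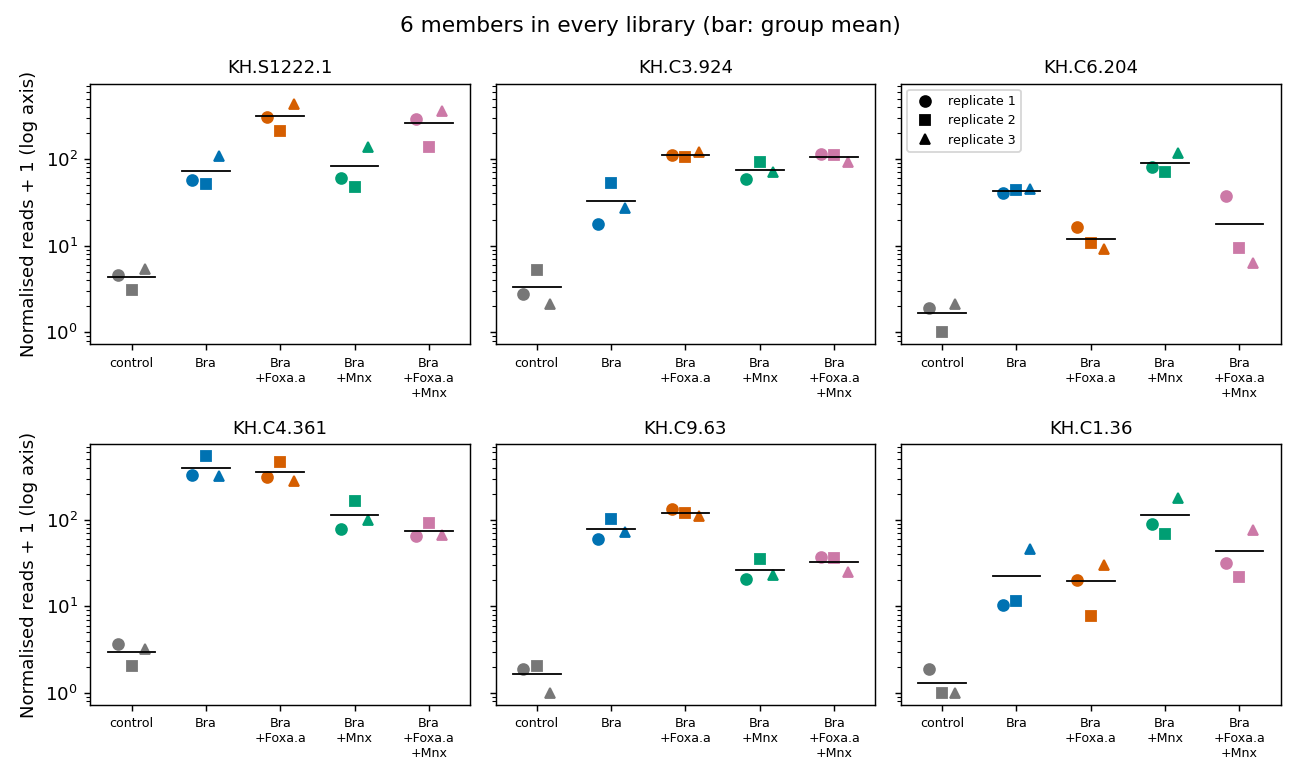
Normalised reads + 1 (log axis) of 6 members in each of the 15 libraries, with symbols for the replicate number and a bar at the group mean. KH.S1222.1 is high and KH.C6.204 low in both groups with Foxa.a, KH.C4.361 and KH.C9.63 are low in both groups with Mnx, and the control libraries lie lowest in each panel because the rule chose the genes so.

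In all, adding Foxa.a to Bra gave no member an adjusted p under 0.05 without the block, where limma called 0.295% of all genes and 715 genes had an unadjusted p under 0.05, and edgeR called 1 member. With the block, 6 members were higher and 1 was lower, against 2.29% of all genes higher and 2.43% lower. The 6 were KH.S1222.1, KH.C3.924, KH.C2.897, KH.S1222.3, KH.C1.132 and KH.C12.313, and the lower one was KH.C6.204. KH.C2.897 had 11.1, 45.4 and 67.5 normalised reads in Bra and 55.4, 123 and 147 in Bra+Foxa.a. Its groups overlapped, and its difference of 1.58 ± 0.32 passed only in the fit with the block (limma adjusted p = 0.00685 with the block and 1 without). KH.C12.313 had 203, 357 and 326 in Bra and 586, 645 and 512 in Bra+Foxa.a, groups that did not overlap, for a difference of 1.01 ± 0.21 (0.00717, and 0.467 without). KH.C2.897 and KH.C12.313 were lost without replicate 2, at 0.0764 and 0.0558, and KH.S1222.3 without replicate 1, at 0.1. KH.C1.132 was lost without replicate 1 or 2, at up to 0.12. Over all 30 members the median log2 difference was 0.27, with 17 above 0, against -0.01 and 48.1% above 0 over all genes tested.

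In the presence of Mnx, adding Foxa.a gave no call without the block, where limma called 0.126% of all genes, with 467 at an unadjusted p under 0.05, and edgeR also called none of the members. With the block, KH.S1222.1 and KH.S1222.3 were higher and KH.C6.204 and KH.C7.410 lower, against 1.06% of all genes higher and 0.764% lower. KH.S1222.3 had 42.5, 45.3 and 59.7 normalised reads in Bra+Mnx and 143, 70.3 and 157 in Bra+Foxa.a+Mnx, a difference of 1.24 ± 0.30 (limma adjusted p = 0.0375 with the block and 0.623 without) that was lost without any 1 of the replicate numbers, at up to 0.203. KH.C7.410 had 76.4, 108 and 173 in Bra+Mnx and 46.7, 42.4 and 50.5 in Bra+Foxa.a+Mnx. The groups did not overlap, and the difference was -1.26 ± 0.28 (limma adjusted p = 0.0212 with the block and 0.534 without), lost without replicate 2 or 3 at up to 0.147. Over the 30 members the median difference was -0.31, with 11 above 0, against -0.0020 and 49.3% over all genes.

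Adding Mnx lowered KH.C4.361, with and without Foxa.a. It fell from 331, 542 and 317 normalised reads in Bra to 78.1, 163 and 98.6 in Bra+Mnx, and from 311, 468 and 280.1 in Bra+Foxa.a to 63.9, 90.9 and 66.6 in Bra+Foxa.a+Mnx. All 6 libraries with Mnx were below all 6 without it. The log2 difference of Bra+Foxa.a+Mnx from Bra was -2.38 ± 0.33 (limma adjusted p = 0.00361 without the block), a call that passed in all 6 fits that each left out 1 library. Its difference from Bra+Foxa.a was -2.22 ± 0.33 (0.0116 without the block), a call lost in 4 of 6 such fits at up to 0.0827, and that of Bra+Mnx from Bra+Foxa.a was -1.66 ± 0.33 (0.0418), lost in 5 of 6 at up to 0.197. The difference of Bra+Mnx from Bra was -1.82 ± 0.25 (limma adjusted p = 9.46e-04 with the block and 0.121 without). With the block, all 4 passed whichever replicate number was left out. Its lowest library with Mnx, at 63.9, was still far above its control level of 1.97 ± 0.824 normalised reads (SD, n = 3).

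KH.C9.63 was also lower in both groups with Mnx. Its reads were 58.5, 102 and 70.6 in Bra and 19.5, 34.2 and 21.9 in Bra+Mnx, and 131, 118 and 111 in Bra+Foxa.a against 36.0, 35.1 and 23.6 in Bra+Foxa.a+Mnx. The 6 libraries with Mnx were again all below the 6 without it. The log2 difference of Bra+Mnx from Bra+Foxa.a was -2.24 ± 0.34 (limma adjusted p = 0.00719 without the block), which passed in all 6 fits that each left out 1 library. That of Bra+Foxa.a+Mnx from Bra+Foxa.a was -1.91 ± 0.34 (0.0408 without the block and 2.90e-04 with it), a call lost without the block whichever library was left out, at up to 0.22. The difference from Bra was -1.58 ± 0.26 for Bra+Mnx (limma adjusted p = 0.00416 with the block and 0.304 without) and -1.25 ± 0.26 for Bra+Foxa.a+Mnx (0.00506, and 0.136 without). Those last calls were lost without replicate 2, at 0.0935 and 0.117.

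KH.C1.36 and KH.C8.226 were higher with Mnx. KH.C1.36 had 9.29, 10.5 and 45.3 normalised reads in Bra, 19.2, 6.71 and 29.2 with Foxa.a added, 89.2, 67.4 and 178 with Mnx added and 31.1, 20.6 and 75.2 with both. The Bra+Mnx libraries were above all Bra and Bra+Foxa.a libraries, whereas the Bra+Foxa.a+Mnx libraries overlapped with both. The difference between Bra+Mnx and Bra was 2.55 ± 0.41 (limma adjusted p = 0.00396 with the block and 0.76 without), lost without replicate 2 at 0.0829. KH.C8.226 had 32.5, 25.6 and 16.9 in Bra, 39.3, 16.3 and 20.2 with Foxa.a added, 71.3, 53.3 and 75.5 with Mnx added and 78.6, 64.2 and 55.9 with both. All 6 of its libraries with Mnx were above all 6 without it. Adding Mnx raised it by 1.41 ± 0.33 relative to Bra (limma adjusted p = 0.041 with the block and 1 without) and by 1.44 ± 0.33 relative to Bra+Foxa.a (0.0245, and 0.689 without), but each of the pair was lost without any 1 of the replicate numbers, at up to 0.178 and 0.115.

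In all, Bra+Mnx minus Bra gave no member a call without the block, where limma called 0.0281% of all genes, with 417 at an unadjusted p under 0.05, and edgeR called none of the members. With the block, KH.C1.36, KH.C8.226 and KH.C3.924 were higher and KH.C4.361 and KH.C9.63 lower, against 0.491% of all genes higher and 0.835% lower. Bra+Foxa.a+Mnx minus Bra+Foxa.a gave 2 members a call without the block, KH.C4.361 and KH.C9.63, against 0.231% of all genes. With the block KH.C8.226 joined them as higher, against 0.386% of all genes higher and 1.79% lower. The median difference over the 30 members was 0.21 for Mnx added to Bra, with 20 above 0, and -0.23 for Mnx added to Bra+Foxa.a, with 10 above 0. Over all genes tested it was 0.00068 and 0.01, with 50.2% and 54.2% above 0.

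**Figure D3:**
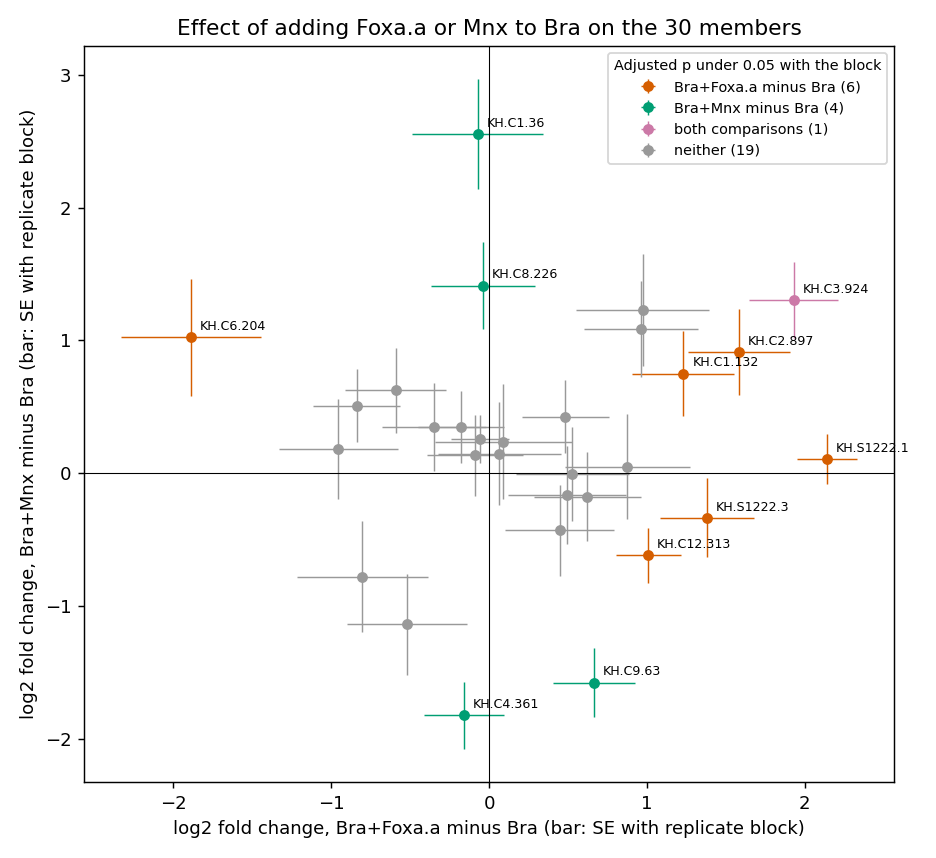
Log2 difference of each of the 30 members between Bra+Foxa.a and Bra (x axis) and between Bra+Mnx and Bra (y axis), with bars of 1 SE from the fit with the replicate block and colours for an adjusted p under 0.05 in that fit. Both axes share the Bra libraries, so the points are not independent on them. KH.S1222.1 lies far right at 2.14, KH.C6.204 far left at -1.89, KH.C1.36 at the top at 2.55 and KH.C4.361 at the bottom at -1.82.

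Set directly against each other, Bra+Mnx and Bra+Foxa.a differed in 3 members without the block, KH.C6.204 higher in Bra+Mnx and KH.C9.63 and KH.C4.361 lower, against 0.435% of all genes called. With the block, 5 were higher in Bra+Mnx (KH.C6.204, KH.C1.36, KH.C8.226, KH.C7.410 and KH.C11.72) and 5 were lower (KH.C9.63, KH.S1222.1, KH.S1222.3, KH.C4.361 and KH.C12.313), against 1.27% of all genes higher and 3.02% lower. KH.C11.72 had 10.01, 10.5 and 16.1 normalised reads in Bra+Foxa.a and 28.9, 29.2 and 29.2 in Bra+Mnx, a difference of 1.22 ± 0.32 (limma adjusted p = 0.0363 with the block and 0.361 without) that was lost without any 1 of the replicate numbers, at up to 0.339. KH.C12.313 had 96.8, 267 and 251 in Bra+Mnx, all below its Bra+Foxa.a libraries, and the difference of -1.63 ± 0.21 (9.17e-05, and 0.0641 without) was kept in all 3 block fits that left out a replicate number. KH.C7.410 and KH.C8.226 were lost without replicate 3, at 0.0781 and 0.123.

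Bra+Foxa.a+Mnx and Bra differed in 2 members without the block, KH.C3.924 higher and KH.C4.361 lower, against 0.842% of all genes. With the block 5 were higher (KH.C3.924, KH.S1222.1, KH.C14.317, KH.C8.226 and KH.C1.132) and 4 lower (KH.C4.361, KH.S364.3, KH.C6.204 and KH.C9.63), against 2.55% of all genes higher and 3.96% lower. KH.C14.317 had 86.4, 96.6 and 193 normalised reads in Bra and 331, 243 and 443 in Bra+Foxa.a+Mnx, groups that did not overlap, for a difference of 1.48 ± 0.36 (limma adjusted p = 0.017 with the block and 0.3 without). Leaving out replicate 1 ended this call, at 0.161, and that of KH.C1.132, at 0.114. KH.S364.3 had 39.9, 81.4 and 113 in Bra and 20.46, 8.5 and 32.2 in Bra+Foxa.a+Mnx. All 3 libraries with both cofactors were below all 3 of Bra, with a log2 difference of -1.94 ± 0.38 (limma adjusted p = 0.00303 with the block and 0.155 without). The Bra gene model itself was 0.57 ± 0.11 higher in Bra+Foxa.a+Mnx than in Bra (limma adjusted p = 0.00265 with the block and 0.289 without), and the part of this in the members' differences was not tested. The call of KH.C6.204 was lost without replicate 2 or 3, at up to 0.286, and that of KH.C8.226 without replicate 1 or 3, at up to 0.0801.

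Whether the effect of Foxa.a depended on Mnx was tested as an interaction. No member passed with or without the block. Over all genes 0.0% passed without it, although 162 had an unadjusted p under 0.05, and 0.00701% with it. edgeR called no member in the interaction either. The lowest adjusted p of a member was 0.276, with the block, for KH.C2.897. Its reads were 20.4, 63.4 and 186 in Bra+Mnx and 28.7, 63.0 and 78.5 in Bra+Foxa.a+Mnx, groups that overlapped, for an interaction of -1.84 with a 95% interval from -2.80 to -0.88 with the block. The fitted interaction was above 0 in 3 of the 30 members, with a median of -0.42, against 52.0% above 0 and a median of 0.01 over all genes tested. For KH.C4.361 it was -0.40 (95% interval -1.15 to 0.35 with the block), for KH.S1222.1 -0.41 (-0.98 to 0.16) and for KH.C8.226 0.03 (-0.95 to 1.01). Each of these intervals spans 0, and departures from additivity of the sizes within it are not excluded for that gene.

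The 15 members that passed in no comparison by limma, with or without the block, were KH.C1.691, KH.C1.712, KH.C1.817, KH.C14.481, KH.C2.388, KH.C3.250, KH.C4.267, KH.C7.235, KH.C7.375, KH.C7.545, KH.C8.781, KH.L37.30, KH.S1035.3, KH.S546.4 and KH.S921.2. edgeR with the block called 4 of these 15 in 1 comparison each (KH.C8.781, KH.S1035.3, KH.S546.4 and KH.C7.375), and edgeR without it called none of the 15. KH.C4.267, the member with most control reads, had 67.8, 82.6 and 120.2 normalised reads in Bra, 94.7, 76.7 and 82.6 with Foxa.a added, 88.3, 106 and 124 with Mnx added and 64.7, 70.3 and 107 with both. With the block, the 95% interval of its log2 difference was -0.44 to 0.33 for Bra+Foxa.a minus Bra and -0.13 to 0.64 for Bra+Mnx minus Bra. KH.C3.250 had the smallest range of group means, 0.16, but its reads were few, at 3.72, 8.14 and 26.3 in Bra and 6.93, 9.58 and 15.1 in Bra+Foxa.a. Its interval for Bra+Foxa.a minus Bra was -0.75 to 0.88, and its replicates spread widely. KH.C14.481, with the next smallest range, had an interval of -0.72 to 0.55. For KH.C1.817 the group means were 4.16 ± 0.969 normalised reads in Bra, 9.14 ± 1.90 with Foxa.a added, 11.5 ± 4.43 with Mnx added and 4.38 ± 2.69 with both (SD, n = 3), and none of its differences passed in limma or edgeR.

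The same differences in all 12 treated libraries were met by 42 further genes whose control mean was 10 or more. With the block, 11 of these 42 were called between Bra+Foxa.a and Bra, all higher, against the 7 of 30 members above. The corresponding counts of the 42 and of the 30 were 5 and 5 for Bra+Mnx minus Bra, 9 and 9 for Bra+Foxa.a+Mnx minus Bra, and 12 and 10 for Bra+Mnx minus Bra+Foxa.a. They were 6 and 3 for Bra+Foxa.a+Mnx minus Bra+Foxa.a, and 5 and 4 for Bra+Foxa.a+Mnx minus Bra+Mnx. As shares in this order the 6 counts were 26.2%, 11.9%, 21.4%, 28.6%, 14.29% and 11.9% of the 42, and 23.3%, 16.7%, 30%, 33.3%, 10% and 13.3% of the 30. Over all genes tested, the shares called with the block in this order were 4.72%, 1.33%, 6.51%, 4.28%, 2.17% and 1.82%. No difference between these shares was tested.

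The members also varied with replicate number. In 15 of the 30 members the same replicate number was highest in all 4 groups given Bra, against 37.8% of all genes tested. It was replicate 3 in 12 of them, which is 40.0% of the members against 10.1% of all genes tested, replicate 2 in KH.C2.388 and KH.C4.361 (9.50% of all genes) and replicate 1 in KH.C14.481 (18.2% of all genes). In 7 of the 15 the same number was also highest in control. KH.C14.481 had 71.5, 57.0 and 24.2 normalised reads in Bra, 107, 44.1 and 17.1 with Foxa.a added, 71.3, 58.3 and 31.7 with Mnx added and 80.2, 40.0 and 18.3 with both. KH.C2.388 was highest in replicate 2 throughout, at 25.6 in Bra, 24.9 with Foxa.a added, 23.1 with Mnx added and 13.3 with both. The electroporated genes differed from one another in the replicate number that was highest. The Bra gene model was highest in replicate 2 in control (793) and in all 4 groups given Bra. Its levels in that replicate were 1449 in Bra, 1332 with Foxa.a added, 1279 with Mnx added and 1618 with both. It was lowest in replicate 3 in Bra (798), with Foxa.a added (1090.3) and with both cofactors (1454). In Bra+Mnx it had 1243 in replicate 3 and was lowest in replicate 1, at 1083. The Mnx gene model had 1468, 1453 and 2950 normalised reads in Bra+Mnx, highest in replicate 3, but 2798, 2204 and 2252 in Bra+Foxa.a+Mnx. The Foxa.a gene model was highest in replicate 3 in Bra+Foxa.a (12459.9 there) and Bra+Mnx (9953), and in replicate 2 in Bra (8334) and replicate 1 in Bra+Foxa.a+Mnx (14949.9). The part of these levels in the members' pattern was not tested. What the replicate numbers stand for is not stated in the labels.

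**Figure D4:**
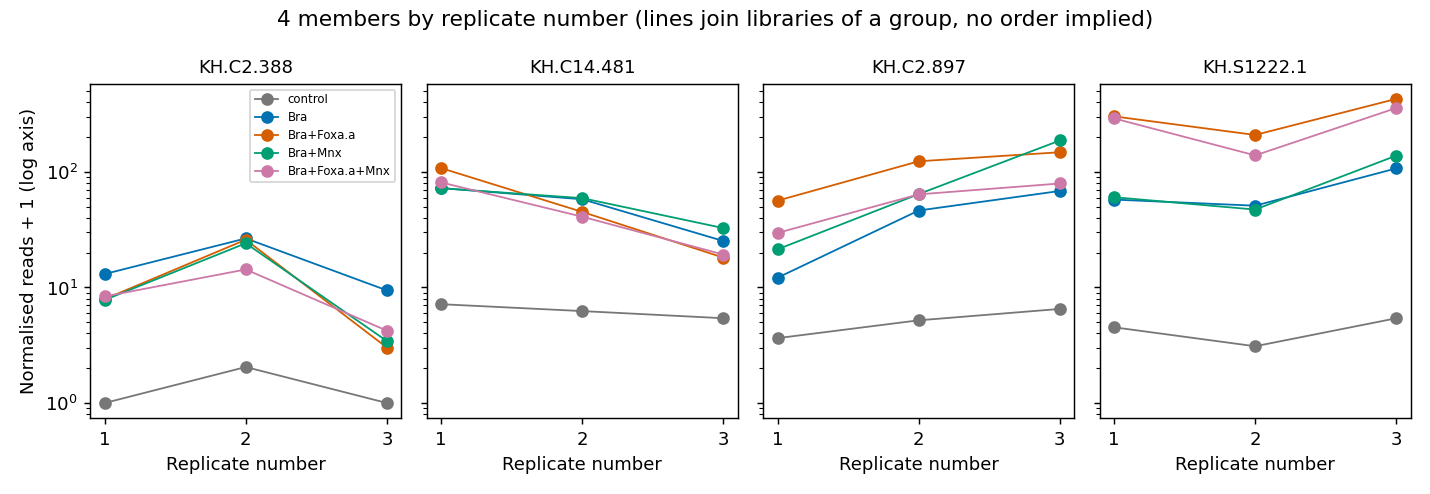
Normalised reads + 1 (log axis) of 4 members by replicate number, with 1 line for each group; the lines only join libraries of a group and imply no order. Groups share their highest replicate in each gene but differ in how steep the profile is, with replicate 2 highest in KH.C2.388, replicate 1 in KH.C14.481, and replicate 3 in all 4 groups given Bra in KH.C2.897 and KH.S1222.1.

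By their identifiers, 23 of the 30 members (76.7%) carry a C identifier, which names a chromosome, as do 68.7% of all gene models, 1 carries an L identifier (3.33%, against 19.5%) and 6 an S identifier (20%, against 11.8%). Among the 2908 gene models under the control limit, from which the members came, these shares were 65.6%, 17.9% and 16.4%. The 23 spread over 11 chromosomes. Chromosome 1 held 5 (16.7% of the 30 members, against 8.46% of all gene models) and chromosome 7 held 4 (13.3%, against 5.14%). This distribution was not tested. KH.S1222.1 and KH.S1222.3 share the S1222 part of their identifier, a pair picked after their values were seen. Across the 12 treated libraries their log2 levels correlated with Pearson's r = 0.94 and Spearman's rho = 0.88, which is a description over libraries that share groups and replicate numbers. KH.S1222.2, which carries the number between them, passed in none of the comparisons, and its log2 difference between Bra+Foxa.a and Bra was 0.12 with a limma adjusted p of 0.906 with the block. How reads shared between near-identical gene models were counted is not given in the sources used here, so similar profiles of neighbouring models are uncertain in that respect.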

How the data were processed

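Whole-embryo RNA of 15 samples was sequenced from libraries made with a stranded mRNA kit, per the labels' protocols. The deposited tables, 4 in number, each hold the 3 control libraries and 1 treated group. The deposited values are a signal scaled to library size by the authors: dividing a column by its smallest step gave whole reads within 0.01 for 100% of values, so each library had been scaled by a single factor. TopHat2 (2.9.8b) and DESeq (1.8.1) are listed in the submitters' processing notes. Genome build, read counter and strand setting: not given in the sources used here. Each table had been normalised separately, and 24 columns of log values were not used.

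The members were found on the deposited values, with log2(value + 1). For comparisons across tables, recovered reads were scaled by median-of-ratios size factors computed once over the 15 libraries ("normalised reads"). limma 3.58.1 in R 4.3.3 (limma-trend) was fitted to log2(normalised reads + 1) over 14260 genes with a mean of at least 1, with 5 groups and no block, and p-values were adjusted by Benjamini-Hochberg over all genes. edgeR 4.0.16 (quasi-likelihood test, TMM) was run on the recovered reads as an alternative and called 46 genes for Bra+Foxa.a minus Bra, 4 for Bra+Mnx minus Bra and 114 for Bra+Foxa.a+Mnx minus Bra, where limma called 42, 4 and 120. The fits were also run on simulated counts for Bra+Foxa.a minus Bra that held no replicate effect. Of 100 genes changed by 1 on the log2 scale, 58% were called, with or without the block. Of 100 changed by 2, 91% were called without the block and 89% with it. The simulation cannot show how the block behaves where libraries deviate together. Its changed genes were drawn only from genes above a minimum mean over the control and Bra libraries. Each simulated gene had the same mean in control and Bra, unlike the members. The shares called may therefore not hold for members with few reads. Replicate numbers come from the sample titles. In 30 of 30 pairs of same-numbered libraries from different groups, deviations from the group means correlated at 0.55 to 0.72, so the numbers were taken to pair the samples. In 60 pairs of differently numbered libraries they correlated at -0.44 to -0.12. Deviations from a group mean cancel within the group, so these negative values follow from the positive ones and are not separate support. The 3 libraries per group are described as biological replicates without further detail, so p-values measure the spread between these samples. That spread is pooled over the 5 groups, the control libraries with few member reads included. With the block, it is the spread left after the replicate number is taken out.

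The members, the lists and the comparisons were chosen with earlier results of these data known. Genes named in the text are those with the highest treated mean or median difference, those without control reads, those called, those beside the limits of the rule, and those with the widest or narrowest range of group means. Members called only with the block, the neighbours of KH.S1222.1 and the genes shown for replicate number were chosen after their values were seen.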

Additional observations from a re-analysis of the deposited data

How the results depend on the processing

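The number of genes that meet the rule depended on its limits: it was 58 with a difference of at least 1, 16 with at least 2 and 11 with a pseudocount of 5, against 30 as reported. It was 24 with a control mean under 5, 42 with one under 20 and 30 on a single scale across the tables. Leaving out 1 replicate number gave 41 to 58 genes. Calls among the members rested mainly on the replicate block. With it, the members called were 7 for Bra+Foxa.a minus Bra, 5 for Bra+Mnx minus Bra, 9 for Bra+Foxa.a+Mnx minus Bra, 10 for Bra+Mnx minus Bra+Foxa.a, 3 for Bra+Foxa.a+Mnx minus Bra+Foxa.a and 4 for Bra+Foxa.a+Mnx minus Bra+Mnx, against 0, 0, 2, 3, 2 and 0 without it. Calls over all genes rose with the block too. In the same order, their shares were 4.72%, 1.33%, 6.51%, 4.28%, 2.17% and 1.82% with the block. Without it they were 0.295%, 0.0281%, 0.842%, 0.435%, 0.231% and 0.126%. With the block and 1 replicate number left out (an alternative chosen after seeing the data), the counts of members called ran from 3 to 7, 1 to 3, 7 to 7, 7 to 9, 2 to 3 and 1 to 4 in the same order. edgeR with the replicate block, also chosen after seeing the data, called 10, 6, 10, 11, 8 and 8 members, where it called 5.48%, 1.69%, 6.94%, 4.98%, 2.64% and 2.19% of all genes. Its 53 member calls included 37 of the 38 block calls of limma. Without the block and with 1 library left out, the counts ran from 0 to 1, 0 to 0, 1 to 2, 1 to 2, 0 to 1 and 0 to 1. For Bra+Foxa.a minus Bra, edgeR, total-read scaling and a pseudocount of 5 each called 1 member. No filter on low values gave 1 for Bra+Foxa.a+Mnx minus Bra, and a pseudocount of 5 gave 1 for Bra+Foxa.a+Mnx minus Bra+Mnx. The cause of these differences was not tested. The interaction called 0 members in every alternative run, and none of the 38 called member differences changed sign in an alternative run.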
